A study of Mus musculus with 4 samples.

Results

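Renin-angiotensin system genes were followed across the cell classes of the mouse kidney by single-cell RNA-Seq (scRNA-Seq). The 8 genes (Ren1, Agt, Ace, Agtr1a, Agtr1b, Mme, Enpep and Atp6ap2) were taken by symbol from the 32285 genes of the count matrices, and UMIs of each were found. All mice were male, of the C3H strain, and 18 weeks old at harvest. From 10 weeks of age they received a high-fat diet (HFD, 60% of calories from fat) or a normal diet (ND) for 8 weeks. Sweet Pee (SP) mice, named MT in the labels, were homozygous for a missense mutation of Slc5a2, the gene of the glucose cotransporter SGLT2, and carried it in every cell of the body. WT mice carried no such mutation. The labels thus gave 4 groups, WT-ND and WT-HFD, then SP-ND and SP-HFD, each represented by 1 library of a digested whole kidney suspension. The number of mice behind a library was not given in the sources used here. With 1 library per group there was no replicate check, a diet or genotype difference cannot be told apart from a difference between preparations, and no p-value is given. Where 4 values stand in a row they follow this order of the groups. A diet ratio is the log2 ratio of HFD to ND within a genotype, and a genotype ratio that of SP to WT on 1 diet. All intervals are exact 95% intervals that cover counting error only.

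Renin, secreted by juxtaglomerular cells of the afferent arteriole, cleaves angiotensinogen to angiotensin I, which angiotensin-converting enzyme turns into angiotensin II. Angiotensin II acts on type 1 receptors to constrict vessels, to raise sodium reabsorption and to restrain further renin release, and membrane peptidases such as neprilysin and aminopeptidase A cut the peptides down. The kidney holds every step of this cascade, spread over cells of the vessel wall, the glomerulus and the tubule.

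Promoter letters are shown for the 3 genes of the list with a TATA-type hexamer on their own strand, the renin gene among them, and for 1 gene found in all classes. In RefSeq on GRCm38.p6, 7 of the 8 genes had an entry, with 10 start sites in all. The hexamer TATAAA was searched on both strands in the 150 bases before each start, and a match on the strand of the gene is in capitals in these 5′ to 3′ sequences.
Ren1 (chr1:133350524-133350673, plus strand): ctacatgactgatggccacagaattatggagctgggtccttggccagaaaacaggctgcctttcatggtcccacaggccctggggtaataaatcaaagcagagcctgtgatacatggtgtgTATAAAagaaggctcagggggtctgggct
Agt (chr8:124569707-124569856, minus strand): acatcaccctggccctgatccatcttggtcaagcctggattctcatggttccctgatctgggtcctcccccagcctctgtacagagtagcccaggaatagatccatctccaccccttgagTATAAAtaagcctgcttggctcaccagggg
Agtr1b (chr3:20367178-20367327, minus strand): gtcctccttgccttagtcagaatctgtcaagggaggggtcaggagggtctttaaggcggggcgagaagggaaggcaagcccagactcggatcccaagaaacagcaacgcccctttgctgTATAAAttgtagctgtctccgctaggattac
Atp6ap2 (chrX:12587609-12587758, plus strand): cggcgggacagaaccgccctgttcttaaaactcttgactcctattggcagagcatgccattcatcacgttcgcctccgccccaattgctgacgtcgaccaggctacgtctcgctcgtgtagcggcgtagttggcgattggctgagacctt
The match began 29 bases before the start of Ren1, 30 bases before that of Agt and 31 bases before that of Agtr1b. Of 32851 mouse promoters of the same length, 7.57% held the hexamer on either strand. The Ren1 and Agt stretches held 0 CpG, Agtr1b held 5 and Atp6ap2 held 14, against a median of 4 over all promoters. Enpep and 1 start site of Ace held the hexamer on the opposite strand, and Mme held none. These matches describe letters and not binding.

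After filters 9924, 8947, 6389 and 7020 cells remained, with median depths of 3486 to 5284 UMIs per cell. Libraries shared 54 to 77 barcodes per pair. Clusters were named from marker genes, and 15 classes had at least 30 cells in each library, with 25922 cells (80.3% of those kept) in named classes. In early proximal tubule (PT) cells Slc5a2 read 566, 397, 105 and 162 CPM (UMIs per 1000000 UMIs of the class), lower in both SP libraries. A cluster led by Hsd11b1 and Ccl28 that received no name held 1571 cells of WT-HFD against 77 of WT-ND, 29 of SP-ND and 38 of SP-HFD. It carried PT markers. In WT-HFD its cells with fewer than 10 Ren1 UMIs held 362532 UMIs of the 8 PT markers, and the 1187 cells of the PT classes held 993621. Values of PT cells leave this cluster out unless stated. In the WT-HFD library the intercalated class held 663 cells, and 286 when libraries were clustered without integration. Markers of PT cells summed to 2913, 5634, 577 and 939 CPM in the intercalated class of the 4 libraries.

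The genes sat in different places of the kidney. Ren1 was concentrated in mural cells, a class of vascular smooth muscle, mesangial and renin-type cells marked by Acta2, Myh11, Rgs5 and Pdgfrb, which held 95.7% of all Ren1 UMIs and 2.68% of all UMIs. Agtr1a was also highest in mural cells, with 50.1% of its UMIs there. Agt was found in thin limb and PT cells, and 33.9% and 30.0% of its UMIs came from late and early PT cells. Ace was split between late PT cells (46.3% of its UMIs), early PT cells (17.5%) and macrophages or dendritic cells (11.8%). Enpep was highest in podocytes (68.4% of UMIs), while among the 15 named classes Mme and Atp6ap2 were highest in intercalated cells (45.3% and 38.1%). For Ren1, Agtr1a, Agtr1b, Mme, Enpep and Atp6ap2 the leading class stood above the next, in that the ranges over the 4 libraries did not overlap. For Agt the thin limb (69.5 to 129 CPM) overlapped late PT cells (42.9 to 70.9 CPM), and for Ace macrophages or dendritic cells (76.5 to 112 CPM) overlapped late PT cells (37.5 to 103 CPM). Since the assay counts 3′ ends and the levels were not set per transcript length, each gene was compared only with itself.

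**Figure D1:**
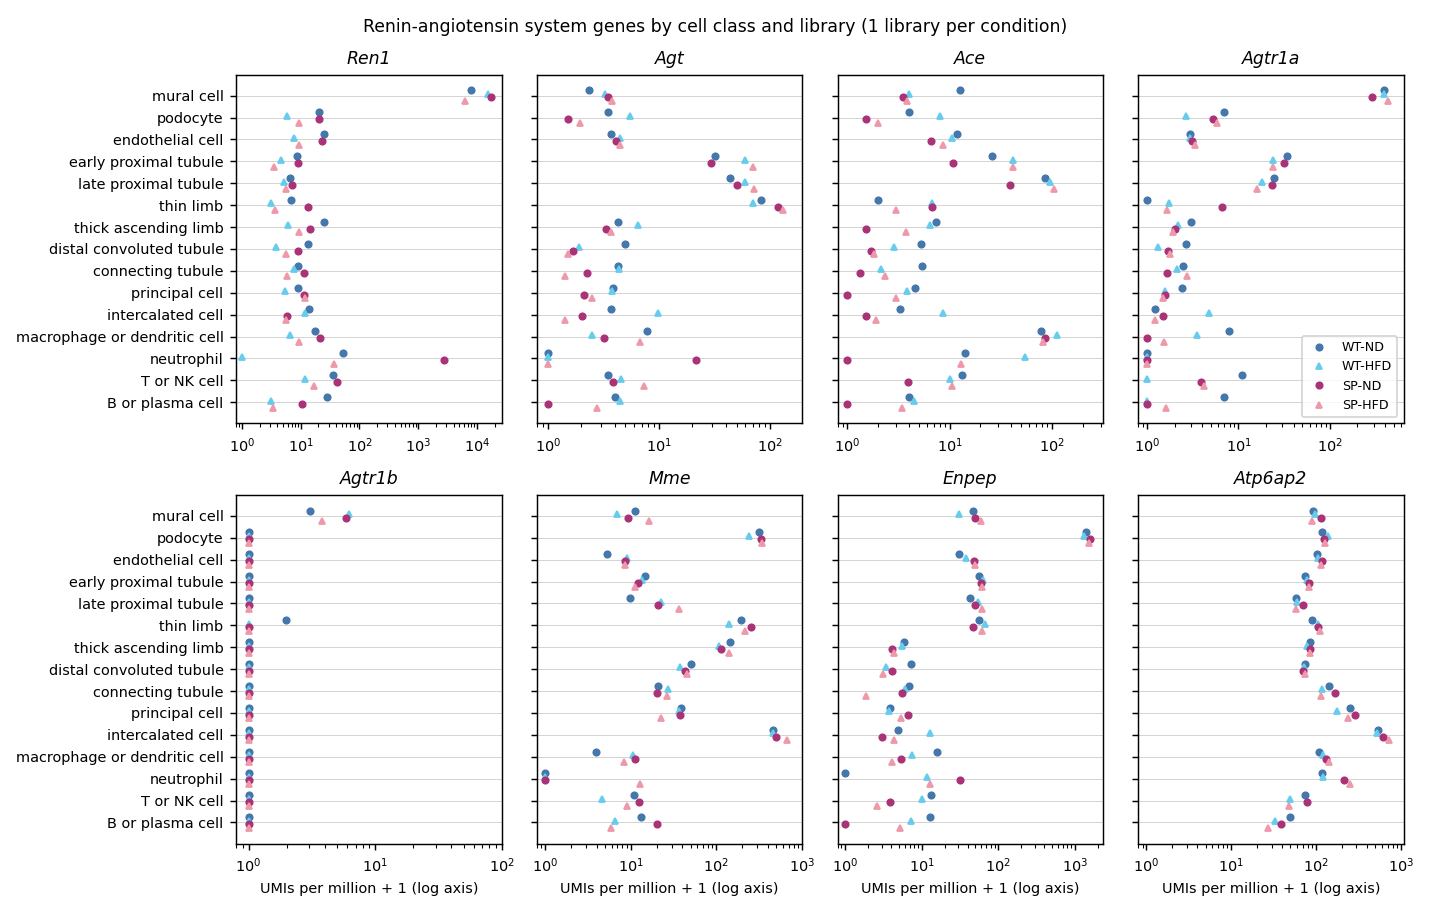
CPM plus 1 (log axis) of each of the 8 genes in 15 cell classes, with 1 point per library, coloured by group (circles ND, triangles HFD). Ren1 and Agtr1a peak in mural cells, Agt in thin limb and PT cells, Ace in PT cells and in macrophages or dendritic cells, Enpep in podocytes, Mme and Atp6ap2 in intercalated cells, and Agtr1b is near 0 in all classes but mural cells.

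Ren1 (chr1:133350510-133360325 in mm10) encodes renin, the aspartyl protease that starts the cascade. In mural cells it read 7856 CPM (interval 7713 to 8001) on ND and 15601 (15390 to 15815) on HFD in WT, and 17589 (17354 to 17826) on ND and 6299 (6170 to 6431) on HFD in SP. WT-HFD and SP-ND were thus the high libraries and WT-ND and SP-HFD the low ones, and the diets were ordered oppositely in the 2 genotypes. The log2 diet ratio was 0.99 (0.96 to 1.02) for WT and -1.48 (-1.52 to -1.45) for SP. The log2 genotype ratio was 1.16 (1.13 to 1.20) on ND and -1.31 (-1.34 to -1.27) on HFD. These intervals treat UMIs as independent and leave out the sampling of cells, which matters here because few cells held most of the UMIs. With the single cell richest in Ren1 left out of each library, the WT diet ratio was 0.75. With the top 5 cells left out, an alternative added after the data were seen, the diet ratio was 0.58 for WT and -1.65 for SP. The ratios of SP to WT were then 0.74 on ND and -1.49 on HFD, so the directions held to that point. The cells ranked 6 to 10 still held 325 to 279 Ren1 UMIs in WT-ND against 1055 to 634 in WT-HFD. Leaving out more than 5 cells was not tried, so the WT direction may rest on few cells. The 8 mural markers summed to 14321, 17136, 21579 and 17309 CPM in the class. Markers of PT cells summed there to 6978, 2184, 1519 and 1742 CPM and those of plasma cells to 129, 231, 95.2 and 1931 CPM, and the part of such RNA in the Ren1 values was not tested.

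Within the mural class Ren1 lay almost entirely in the cluster led by Myh11 and Acta2, contractile genes of smooth muscle. This label leaves out Ren1 itself, which came first among the top genes of the cluster, with Akr1b7 also among them. Ren1 read 16569, 29636, 23258 and 11282 CPM there. In the cluster labelled by Itga8 and Pdgfrb, whose top genes began with Ptn and Sfrp2, it read 394, 109, 141 and 981 CPM. Itga8 is a gene of mesangial cells, and Pdgfrb was read in both clusters. The first cluster kept the order of ND and HFD seen in the whole class, with log2 diet ratios of 0.84 in WT and -1.04 in SP. In the second the order was the opposite, with ratios of -1.86 and 2.80 on 42 to 681 UMIs per library. It held 10 of the Ren1-rich cells defined next, 6 of them in SP-HFD. The mix of the clusters differed as well: the Myh11 and Acta2 cluster had 219, 127, 218 and 170 cells and the other 171, 94, 56 and 132 cells. Within the Myh11 and Acta2 cluster SP-ND (23258 CPM) stood less than 2-fold above WT-ND (16569 CPM), unlike in the whole class. On HFD the genotypes stayed more than 2-fold apart there (29636 and 11282 CPM). That cluster gave 675470 of 1464254 mural UMIs in WT-ND and 919318 of 1217965 in SP-ND. The part of this mix in the class ratio of SP to WT was not tested.

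Most Ren1 came from a small number of cells. Cells with at least 10 Ren1 UMIs, called Ren1-rich, numbered 74 on ND and 55 on HFD in WT, and 54 on ND and 41 on HFD in SP. They were 0.746%, 0.615%, 0.845% and 0.584% of kept cells and carried 92.9%, 97.6%, 96.8% and 96.1% of all Ren1 UMIs of their libraries. Of the 224 Ren1-rich cells, 207 (92.4%) were mural cells. As a share of mural cells they made up 17.4% (exact Clopper-Pearson interval 13.8% to 21.6%) on ND and 21.3% (16.1% to 27.3%) on HFD in WT, and 19% (14.5% to 24.1%) on ND and 13.2% (9.63% to 17.6%) on HFD in SP. SP-HFD gave the lowest share and the lowest count, and with 1 library per group the shares were not tested against each other. A cut of 10 UMIs is easier to reach in deeper cells, and mural cells had median depths of 2818.5, 5294, 3772.5 and 4024 UMIs, highest in WT-HFD. By another definition, a cell in which Ren1 made up at least 1% of UMIs, the counts among kept cells were 57, 30, 39 and 25. WT-HFD then lay below both ND libraries. Shares of mural cells were not computed for this definition.

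The Ren1 content of single rich cells differed widely. The median was 75 UMIs on ND and 51 on HFD in WT, and 104.5 on ND and 54 on HFD in SP, so by the median cell WT-HFD was not the high library that it was by the class total. Rich cells differed in depth, with medians of 3054.5, 5647, 4168 and 4789 UMIs of all genes. As a share of the UMIs of a rich cell, the median of Ren1 was 2.82%, 1.08%, 2.90% and 1.37%, lowest in WT-HFD. The UMI counts that follow are not adjusted for depth. The single highest cell held 1635, 5853, 4189 and 1686 Ren1 UMIs in that order. That cell alone gave 13.1%, 27.3%, 18.8% and 17.9% of the Ren1 of its library, and the top 5 cells gave 40.4%, 57.7%, 57.0% and 60.5%. Cells with at least 1000 Ren1 UMIs numbered 2, 6, 5 and 3, and cells with at least 100 numbered 31, 22, 28 and 13. WT-HFD therefore had the most cells of the first kind and fewer of the second than WT-ND or SP-ND. Renin took up to 40.9%, 34.8%, 32.5% and 29.4% of the UMIs of a single cell.

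**Figure D2:**
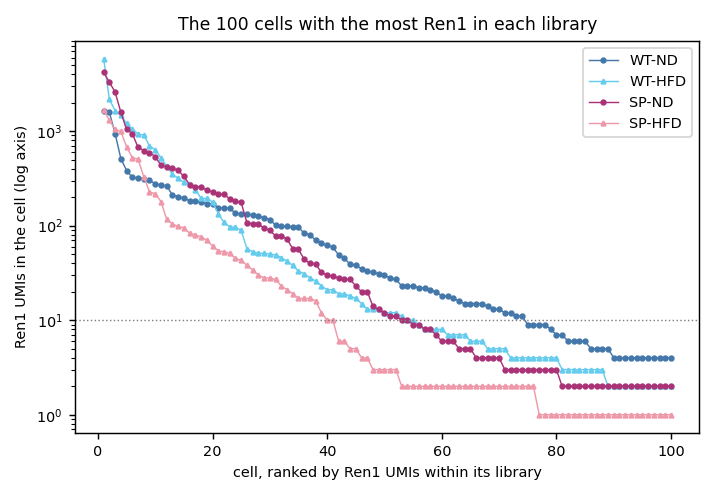
Ren1 UMIs per cell (log axis) for the 100 cells with the most Ren1 UMIs in each library, ranked within the library, with the dotted line at 10 UMIs. The WT-HFD curve starts highest, at 5853 UMIs, and crosses below those of WT-ND and SP-ND, and SP-HFD drops under 10 UMIs first, after 41 cells. Counts are not adjusted for the depth of the cells.

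Of the 207 rich mural cells, 197 lay in the Myh11 and Acta2 cluster, so they were compared with the other cells of that cluster, in a comparison added after the data were seen. Ren1 itself, which set the split, read 48861, 73079, 86520 and 52754 CPM in the 66, 46, 51 and 34 rich cells and 369, 127, 217 and 116 CPM in the 153, 81, 167 and 136 other cells. Akr1b7, an aldo-keto reductase that marks renin cells, had log2 ratios of rich to other cells of 2.19, 3.23, 3.49 and 2.53. Gja5, a connexin gene, gave 14, 20, 33 and 12 UMIs in rich cells and 3, 2, 7 and 1 in the others, with log2 ratios of 3.22 (1.38 to 5.66), 3.88 (1.84 to 7.02), 3.69 (2.49 to 5.12) and 5.48 (2.72 to 10.9). These genes were higher in rich cells of every library.

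The other companions of the renin cell and the contractile gene Acta2 were not. Rgs5, a regulator of G protein signalling in pericytes, had log2 ratios of -0.96, -0.75, -1.03 and -0.60, and Acta2, smooth muscle actin, of -0.23, -0.43, -0.14 and -0.55. Adcy5, an adenylyl cyclase, had ratios of -0.65, -0.66, -0.76 and -0.52, and the intervals of WT-ND and SP-HFD held 0. Gja4, a second connexin gene, had ratios of -0.21, 0.13, -0.58 and -0.93. The share of UMIs that Ren1 took in rich cells lowers the CPM of every other gene there. Agtr1a, the angiotensin II receptor, had no single direction, with ratios of -0.77 (-1.61 to 0.01), 0.65 (0.04 to 1.26), -0.18 (-0.75 to 0.37) and 0.52 (-0.12 to 1.12). For Enpep, aminopeptidase A, the ratios were 0.16, 0.17, 0.38 and -0.21, and all intervals held 0.

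Against all other mural cells, which include the Itga8 and Pdgfrb cluster, the same ratios differed. Akr1b7 stayed higher, at 3.42, 4.22, 3.82 and 3.41, but Gja5 read -0.70, -1.14, 0.73 and 0.18 and Agtr1a -2.14, -1.29, -0.97 and -0.70. Acta2 turned to 1.19, 0.87, 0.36 and 0.15. Rgs5 read 0.42, 0.48, -0.53 and 0.11, Gja4 0.63, 1.28, -0.17 and -0.28, and Adcy5 0.63, 0.49, -0.28 and 0.11. Only Akr1b7 of the 5 companions was thus higher in rich cells of every library by both comparisons.

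A few Ren1-rich cells lay outside the mural class. A cell in the neutrophil class of SP-ND held 258 Ren1 UMIs and alone set the value of that class. Thick ascending limb cells of WT-ND included 2 with up to 38 UMIs, and intercalated cells of WT-HFD included 1 with 26. The unnamed cluster led by Hsd11b1 and Ccl28 held 3, 7, 1 and 1 such cells, with up to 104 UMIs. Cells removed as doublets included a further 17, 2, 7 and 4, and barcodes past the mitochondrial limit 3, 2, 3 and 3, so the filters took away more rich cells from WT-ND than from the other libraries.

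Companion genes of the renin cell were read in the whole mural class from a list of 5. Akr1b7 shared its high and low libraries with Ren1, at 234, 431, 467 and 235 CPM. Rgs5 read 2140, 2718, 3722 and 3452 CPM. Adcy5 read 48.5, 83.1, 104 and 82.2 CPM. The connexin genes Gja4 and Gja5 read 122, 125, 177 and 150 CPM, and 112, 148, 90.3 and 158 CPM. All 5 passed the filter on low values, and 1 of them, Adcy5, passed a 2-fold ratio in 1 comparison, higher in SP than in WT on ND, where 2.24% of all genes tested in mural cells were higher and 4.43% lower.

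In PT cells Ren1 was low beside mural cells, and its level was set against cells that should lack it. It read 6.53 CPM (interval 5.48 to 7.72) on ND and 3.91 (2.98 to 5.03) on HFD in WT, and 7.03 (5.70 to 8.57) on ND and 3.58 (2.40 to 5.14) on HFD in SP. T or NK cells, which should lack renin, read 34.4, 10.8, 40.5 and 15.9 CPM, higher than PT cells in every library. PT cells were the deeper class, with medians of 8833 to 14668.5 UMIs against 1546.5 to 2863 for T or NK cells. Per cell the order was reversed in every library. Among cells with fewer than 10 Ren1 UMIs, PT cells held 65.4, 50.5, 99.2 and 45.8 Ren1 UMIs per 1000 cells and T or NK cells 58.8, 34.9, 95.2 and 42.6. The interval for PT cells of WT-HFD was 38.6 to 65.1 and that for T or NK cells 12.8 to 75.9. The median of the 14 classes other than mural was 66.5, 31.6, 94.3 and 39.4 per 1000 cells, so PT cells of WT-HFD lay above it, and late PT cells, at 64.2, were the highest of the 14 in that library. Mural cells below the threshold of 10 held 578, 420, 671 and 305 per 1000 cells, above the highest other named class of each library (108, 64.2, 136 and 69.6). The unnamed cluster led by Hsd11b1 and Ccl28 held 108, 122, 214 and 108 per 1000 cells, on 8, 191, 6 and 4 UMIs. In WT-HFD its interval was 105 to 141, so by this count it lay above every named class but mural cells there. The share of its cells with a Ren1 UMI was 6.14% in WT-HFD, beside 6.19% of late PT cells. The higher count thus came from cells with several Ren1 UMIs, which the interval treats as independent. Without thinning, 6.30%, 4.80%, 9.0% and 4.58% of PT cells had a Ren1 UMI, and 5.46%, 2.91%, 9.52% and 3.4% of T or NK cells. With cells thinned to a common 1000 UMIs, with 11, 6, 3 and 7 shallower PT cells and 54, 19, 23 and 19 T or NK cells left out, the shares were 0.816%, 0.593%, 1.33% and 0.799% of PT cells against 3.26%, 2.61%, 5.65% and 1.39% of T or NK cells. By CPM and by the thinned share PT cells thus lay below T or NK cells in every library, and per 1000 cells above them. The CPM and the thinned share both divide by depth, which was greater in PT cells, so they cannot decide whether PT cells express Ren1 at a low level. Per 1000 cells each PT value lay within the interval of T or NK cells, and PT Ren1 is not reported as expression.

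Differences in PT Ren1 between libraries were set beside those of other classes. The log2 diet ratio in PT cells was -0.74 (-1.20 to -0.29) for WT and -0.97 (-1.62 to -0.36) for SP. With 2 unnamed clusters added to the PT class, a setting added after the data were seen, the SP ratio turned to 0.63 and the WT ratio was -0.75. These are the cluster led by Hsd11b1 and Ccl28 and a shallow one led by Hbb-bs and Snhg11. In SP-HFD the first of them included 1 cell with 104 Ren1 UMIs, against 29 UMIs in all PT cells. Other cells of the 2 clusters held 4 and 15 UMIs in that library, so most Ren1 behind the turned SP ratio came from 1 cell. In endothelial cells, which also should lack renin, the diet ratio was -1.82 and -1.41, in podocytes -2.0 and -1.24, and in thick ascending limb cells -2.23 and -0.71. Without its 2 Ren1-rich cells, in WT-ND, the thick ascending limb gave -1.62 in WT. The HFD libraries were lower in these 3 classes and in the named PT classes, in both genotypes, also in WT, where mural Ren1 was higher on HFD. The genotype ratio in PT cells was 0.11 (-0.28 to 0.49) on ND and -0.13 (-0.82 to 0.54) on HFD, and the intervals held 0.

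**Figure D3:**
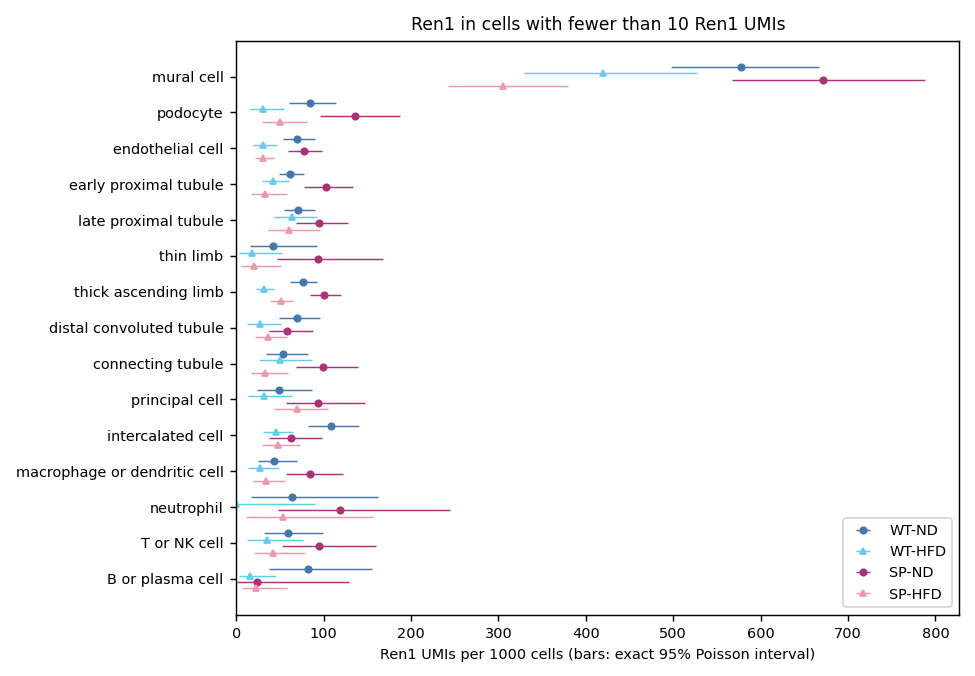
Ren1 UMIs per 1000 cells in cells with fewer than 10 Ren1 UMIs, by class and library, with exact 95% Poisson intervals. Mural cells lie between 305 and 671, PT cells lie with the remaining classes, and both ND libraries (circles) lie mostly to the right of the HFD libraries (triangles).

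Agt (chr8:124556534-124569706) encodes angiotensinogen, the substrate of renin. In early PT cells it read 31.1 CPM (interval 27.8 to 34.8) on ND and 58.1 (53.1 to 63.4) on HFD in WT, and 28.6 (24.7 to 32.9) on ND and 69.4 (61.7 to 77.8) on HFD in SP. Both HFD libraries were higher than both ND libraries. Diet ratios were 0.90 (0.69 to 1.11) for WT and 1.28 (1.01 to 1.55) for SP. In late PT cells Agt read 42.9, 57.9, 49.8 and 70.9 CPM, with log2 ratios of 0.43 (0.23 to 0.63) and 0.51 (0.28 to 0.74). The order by diet was thus the same in both segments and the ratio smaller in the late one. Over early and late PT cells together the ratios were 0.64 (0.50 to 0.78) in WT and 0.83 (0.66 to 1.01) in SP, and those of SP to WT were 0.08 (-0.08 to 0.24) on ND and 0.27 (0.12 to 0.43) on HFD.

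In the thin limb the genotype rather than the diet ordered Agt. It read 82.4 CPM on ND and 69.5 on HFD in WT, and 116 on ND and 129 on HFD in SP on 83 to 193 UMIs per library. Both SP libraries were higher. The log2 genotype ratio was 0.49 (0.06 to 0.93) on ND and 0.89 (0.53 to 1.26) on HFD, and the diet ratio was -0.25 (-0.68 to 0.19) for WT and 0.16 (-0.20 to 0.52) for SP. Outside the thin limb and PT classes, the unnamed cluster led by Ubd and C3, which carried PT markers, read 52.7, 85.7, 46.8 and 44.8 CPM. The remaining classes held few Agt UMIs, with no class above 6 CPM when libraries were pooled. The genes whose levels followed Agt most closely over 60 pairs of class and library were 1700016C15Rik (Pearson r = 0.89), Frzb (0.89) and Car14 (0.87), and points of 1 library share its depth and free RNA.

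Ace (chr11:105967945-105989964) encodes angiotensin-converting enzyme, which forms angiotensin II at the brush border and on vessels. In late PT cells it read 84.8 CPM (interval 79.5 to 90.5) on ND and 95.7 (88.4 to 103) on HFD in WT, and 37.5 (33.1 to 42.3) on ND and 103 (93.1 to 114) on HFD in SP. In early PT cells it read 24.8 (21.8 to 28.0), 40.6 (36.5 to 45.1), 9.87 (7.65 to 12.5) and 40.9 (35.1 to 47.4) CPM. SP-ND was the low library in both segments. The log2 diet ratio in SP was 2.05 (1.64 to 2.48) in early and 1.46 (1.23 to 1.69) in late PT cells, and in WT it was 0.71 (0.48 to 0.95) and 0.17 (0.03 to 0.32). Over both segments the WT ratio was 0.20 (0.08 to 0.33), and it turned to -0.07 (-0.18 to 0.04) with the 2 unnamed clusters named above added to the PT class. The genotype ratio on ND was -1.33 (-1.74 to -0.93) in early and -1.18 (-1.38 to -0.98) in late PT cells, and on HFD it was 0.01 (-0.26 to 0.28) and 0.11 (-0.08 to 0.29). The SP library was thus lower on ND, and on HFD the intervals held 0. The PT marker list was lowest in SP-ND as well: the summed level of its 8 markers, all detected, was 73269, 64725, 36014 and 62720 CPM in PT cells. The early PT list went the other way in PT cells, at 1357, 1246, 1488 and 1218 CPM. In late PT cells early PT markers summed to 455, 478, 857 and 486 CPM, highest in SP-ND. Late PT markers summed there to 1064, 950, 774 and 1216 CPM, lowest in SP-ND. The part of these marker differences in the Ace values was not tested.

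**Figure D4:**
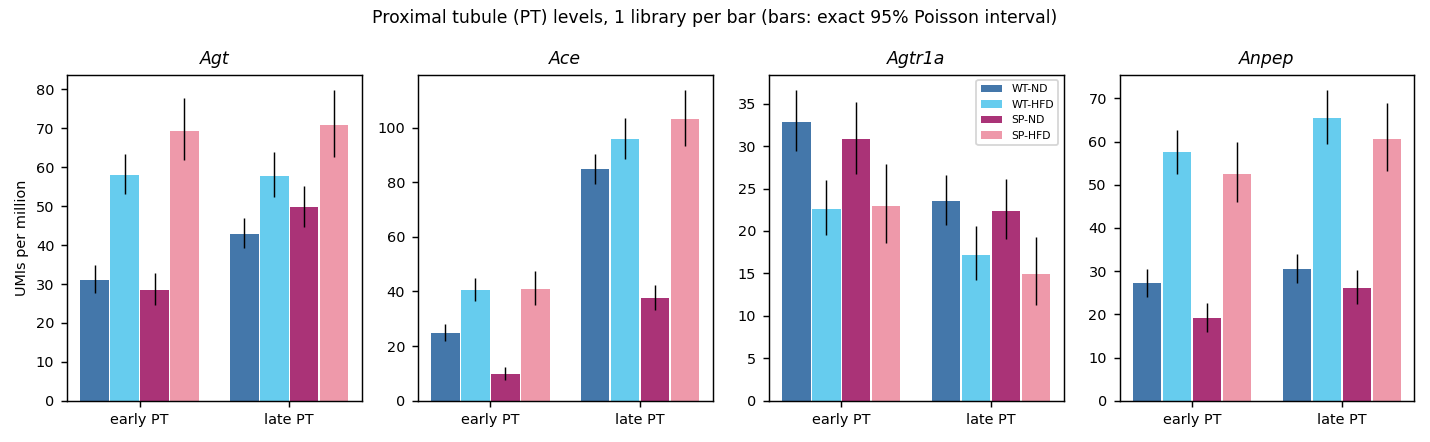
CPM of Agt, Ace, Agtr1a and Anpep (aminopeptidase N) in early and late PT cells, with 1 bar per library and exact 95% Poisson intervals. Agt and Anpep lie higher in both HFD libraries, Ace is low in SP-ND, and Agtr1a lies lower in both HFD libraries.

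Immune and vascular cells were further places of Ace. Macrophages or dendritic cells read 76.5, 112, 84.8 and 80.0 CPM. Their Ace lay in 1 of their clusters, led by Ear2 and Treml4, genes of patrolling monocytes, at 276, 672, 284 and 469 CPM. The cluster led by C1qa, a complement gene of resident macrophages, read 10.4, 3.63, 4.15 and 3.73 CPM. In the Ear2 and Treml4 cluster the diet ratio was 1.29 (0.89 to 1.70) for WT and 0.72 (0.36 to 1.09) for SP. An unnamed cluster led by Vwf and Eln, an endothelial clotting factor gene and the elastin gene, read 211, 81.5, 115 and 177 CPM on 24 to 56 UMIs. The named endothelial class read 10.9, 9.57, 5.52 and 7.65 CPM. A small late PT cluster led by Cyp7b1 read 232, 168 and 240 CPM in WT-HFD, SP-ND and SP-HFD and had 1 cell in WT-ND. Levels of Susd3 (r = 0.81), Cd36 (0.80) and Gpx1 (0.79) followed Ace most closely over the 60 pairs.

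Agtr1a (chr13:30336441-30382867) encodes the main type 1 angiotensin II receptor of the mouse. In mural cells it read 384 CPM (interval 353 to 418) on ND and 385 (352 to 420) on HFD in WT, and 289 (260 to 321) on ND and 426 (393 to 461) on HFD in SP. SP-ND was lower than the other libraries, and the diet ratio was 0.00 (-0.17 to 0.18) for WT and 0.56 (0.37 to 0.75) for SP. Within each mural cluster this difference was smaller. The Itga8 and Pdgfrb cluster read 614, 660, 670 and 716 CPM and the Myh11 and Acta2 cluster 117, 136, 165 and 155 CPM, with SP diet ratios of 0.10 (-0.14 to 0.34) and -0.09 (-0.45 to 0.27). SP-ND had the fewest cells of the Itga8 and Pdgfrb cluster, 56 of its 274 mural cells. Ren1 and Agtr1a were thus highest in different mural clusters.

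In PT cells Agtr1a was ordered by diet, in the direction opposite to Agt. Early PT cells read 32.8 CPM (29.4 to 36.6) on ND and 22.6 (19.6 to 26.0) on HFD in WT, and 30.8 (26.7 to 35.2) on ND and 22.9 (18.6 to 27.9) on HFD in SP. Late PT cells read 23.5, 17.2, 22.4 and 14.9 CPM. The log2 diet ratio was -0.54 (-0.80 to -0.28) for WT and -0.43 (-0.79 to -0.07) for SP in early cells, and -0.45 (-0.78 to -0.13) and -0.59 (-1.05 to -0.14) in late cells. None of these passed a 2-fold ratio. Map3k7cl (r = 0.91), Itga7 (0.90) and Adamts15 (0.86) followed it most closely. Agtr1b (chr3:20314473-20367177), the second type 1 receptor gene of rodents, gave 4, 10, 6 and 4 UMIs in all, of which 3, 7, 6 and 4 lay in mural cells. This depth allows no comparison of Agtr1b between libraries.

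Mme (chr3:63241537-63386030) encodes neprilysin, a membrane peptidase that cuts angiotensin I to angiotensin 1-7 and degrades natriuretic peptides. In intercalated cells it read 462 CPM (interval 442 to 483) on ND and 457 (439 to 476) on HFD in WT, and 499 (477 to 522) on ND and 675 (651 to 699) on HFD in SP. The level lay in the cluster led by Slc4a1 and Aqp6, genes of acid-secreting type A cells, at 800, 866, 845 and 1004 CPM. In the cluster led by Slc26a4 and Hmx2, genes of base-secreting cells, it read 81.8, 89.8, 106 and 78.6 CPM. SP-HFD was highest in the first cluster, and without integration the intercalated class of WT-HFD read 611 CPM. Podocytes read 316, 237, 335 and 342 CPM, with WT-HFD lowest. Thin limb cells read 192, 140, 251 and 215 CPM, and an unnamed cluster led by Msmp and Wnt16 read 806, 428, 709 and 470 CPM on 55 to 115 UMIs, above the intercalated class in WT-ND and SP-ND.

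Mme in the thick ascending limb and the late PT differed between the libraries in other ways. The thick ascending limb read 143 CPM (interval 134 to 153) on ND and 107 (99.9 to 115) on HFD in WT, and 111 (104 to 118) on ND and 139 (130 to 147) on HFD in SP. Diet ratios were -0.42 (-0.56 to -0.28) for WT and 0.32 (0.20 to 0.44) for SP, of opposite sign. Late PT cells read 8.75 (7.09 to 10.7), 21.4 (18.0 to 25.2), 19.7 (16.5 to 23.2) and 36.1 (30.3 to 42.6) CPM, with log2 diet ratios of 1.29 (0.91 to 1.68) in WT and 0.88 (0.52 to 1.23) in SP. WT-ND was lowest and SP-HFD highest. A small cluster led by Cyp7b1 moved with this order: it gave 1, 9, 18 and 52 of the late PT cells and read 357, 344 and 297 CPM in the 3 libraries other than WT-ND. In the main late PT cluster, led by Slc7a13, Mme read 8.66, 18.5, 13.5 and 22.3 CPM, with ratios of 1.10 (0.70 to 1.50) and 0.72 (0.27 to 1.17). Early PT cells read 13.7, 12.6, 11 and 10.3 CPM. The closest followers of Mme were Sh3bgrl2 (r = 0.85), Ctnnal1 (0.84) and Cxadr (0.83).

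Enpep (chr3:129269175-129332720) encodes aminopeptidase A, which turns angiotensin II into angiotensin III. In podocytes it read 1413 CPM (interval 1362 to 1466) on ND and 1305 (1260 to 1351) on HFD in WT, and 1559 (1504 to 1617) on ND and 1536 (1483 to 1591) on HFD in SP. Both SP libraries were higher, by log2 ratios of 0.14 (0.07 to 0.22) on ND and 0.24 (0.16 to 0.31) on HFD, and the range of the 4 libraries was narrow beside that of Ren1 or Ace. The 8 PT markers gave 11026, 9245, 1905 and 2724 UMIs in podocytes, fewer in both SP libraries. The part of such RNA in these Enpep values was not tested. Early PT cells read 55.8, 62.3, 58.0 and 59.8 CPM and late PT cells 42.3, 54.1, 48.8 and 61.2 CPM. In late PT cells the diet ratio was 0.36 (0.15 to 0.56) for WT and 0.33 (0.08 to 0.57) for SP, and in early PT cells the intervals held 0. Endothelial Enpep lay in the cluster led by Plvap, a gene of fenestrated peritubular capillaries, at 49.3, 60.5, 65.7 and 69.3 CPM. The cluster led by Ehd3, a gene of glomerular capillaries, read 9.83, 5.35, 4.95 and 12.2 CPM. In mural cells it lay with Ren1 in the Myh11 and Acta2 cluster, at 94.7, 52.8, 64.2 and 93.1 CPM. These values rest on 23, 16, 19 and 13 UMIs in Ren1-rich cells and 41, 21, 40 and 56 in the other cells. A relation to the Ren1 level was not tested. Htra1 (r = 0.92), Clic5 (0.87) and P4ha2 (0.83) followed Enpep most closely.

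Atp6ap2 (chrX:12587801-12617049) encodes the (pro)renin receptor, which is also an accessory subunit of the vacuolar proton pump. It was detected in all 15 classes of every library. Intercalated cells read 542 CPM (interval 521 to 565) on ND and 524 (504 to 544) on HFD in WT, and 618 (594 to 643) on ND and 720 (695 to 745) on HFD in SP. Both SP libraries were higher, but without integration WT-HFD read 633 CPM and SP-ND 616, so this order rested on which cells entered the class. Unlike Mme, the gene was high in both intercalated clusters, at 625, 509, 764 and 831 CPM in the Slc26a4 and Hmx2 cluster and 469, 541, 490 and 658 CPM in the Slc4a1 and Aqp6 cluster. Principal cells read 251, 174, 291 and 240 CPM. Early PT cells read 72.2, 76.5, 81.7 and 81.3 CPM and late PT cells 56.3, 57.9, 69.6 and 57.3 CPM. B or plasma cells were lowest over the pooled libraries, at 48.1, 32.2, 38.2 and 25.8 CPM. The genes that followed it most closely were Atp6v0b (r = 0.88), Rnasek (0.84) and Atp6ap1 (0.82), of which Atp6v0b and Atp6ap1 are named for the same proton pump.

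Ratios past 2-fold were then counted over the 15 classes, for pairs of gene and class with a mean of at least 10 CPM and at least 30 UMIs in the 2 libraries compared. For HFD to ND in WT, 44 pairs passed this filter, of which 1 was higher and 3 were lower, against 1.91% higher and 2.49% lower over all genes and classes. For HFD to ND in SP, 3 of 47 pairs were higher and 5 lower (1.72% and 2.87% of all). For SP to WT on ND, 3 of 44 pairs were higher and 2 lower (1.17% and 1.85%). For SP to WT on HFD, 2 of 41 pairs were higher and 1 lower (0.626% and 1.39%). The lower pairs of HFD to ND in WT were Ren1 in endothelial cells, podocytes and the thick ascending limb. Their HFD values of 6.70, 4.96 and 5.09 CPM lay under the 10 CPM of the filter. They passed it through ND values of 23.7, 19.8 and 23.9 CPM. The lower pairs in SP were Ren1 in mural cells and in 4 other classes, neutrophils among them, where 1 cell set the value. Endothelial cells, podocytes and macrophages or dendritic cells of SP also passed through ND alone, with HFD values of 8.44, 8.25 and 8.32 CPM. A pair with an HFD value under 10 CPM enters the count only where ND is high, so the number of such pairs is not read as a diet result. The lower pairs of both diet contrasts were thus 1 gene counted over several classes, mostly at its low level outside mural cells, and not several genes of the list. The remaining pairs were Ren1 in mural cells and neutrophils, Agt and Ace in early PT cells, Ace and Mme in late PT cells, Mme in mural cells and Atp6ap2 in neutrophils. Of these, Ace in early PT cells of SP-ND (9.87 CPM), Mme in late PT cells of WT-ND (8.75 CPM) and Mme in mural cells of WT-HFD (5.99 CPM) also lay under 10 CPM. Their pairs passed through the higher library. Of the 8 genes, 6 passed the filter in early PT cells, and their median log2 ratio of HFD to ND was 0.12 for WT and 0.02 for SP, against 0.02 and -0.02 over all genes.

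**Figure D5:**
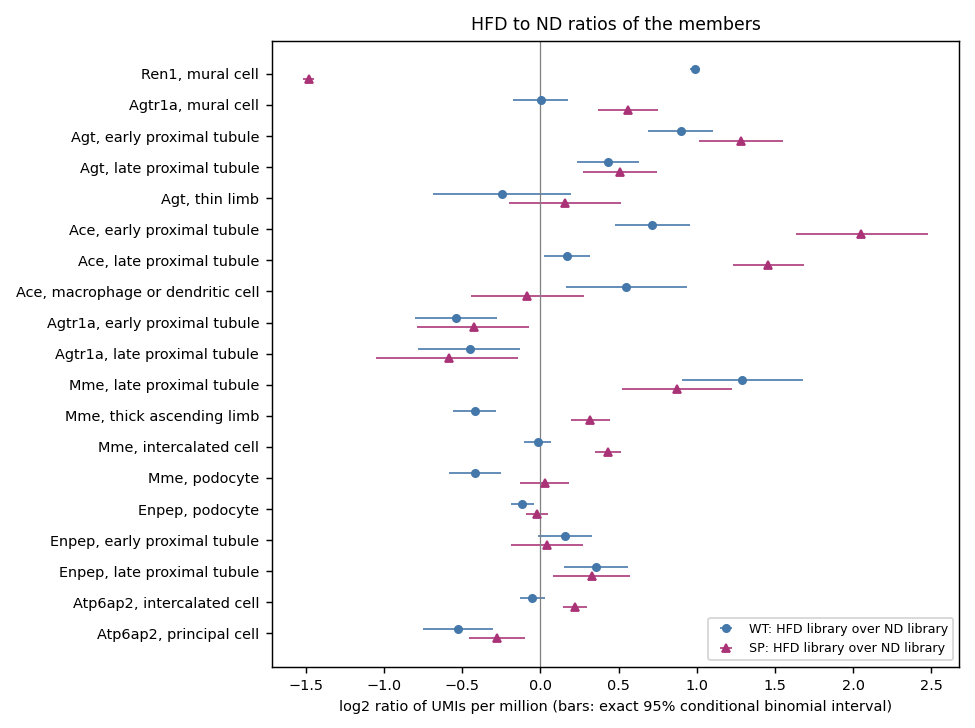
Log2 ratio of HFD to ND in WT and in SP for members in the classes where they were highest or differed between libraries, with exact 95% intervals that cover counting error only. Agt lies to the right of 0 in PT cells of both genotypes, Agtr1a to the left in PT cells of both, and Ren1 in mural cells lies at 0.99 in WT and -1.48 in SP.

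Other genes of the pathway were read from a list of 19. In early and in late PT cells 8 of the 19 passed the filter in each comparison, and 1, Anpep, passed a 2-fold ratio, higher on HFD in both genotypes and both segments. Over all genes, 2.12% in WT and 2.6% in SP were higher on HFD in early PT cells, and 1.64% and 3.26% in late PT cells. For SP to WT none of the 8 passed in either direction, against 0.109% to 0.831% of all genes. Anpep, aminopeptidase N, which turns angiotensin III into angiotensin IV, read 27.2, 57.5, 19.1 and 52.6 CPM in early PT cells and 30.4, 65.5, 26.1 and 60.7 CPM in late PT cells. The log2 diet ratio was 1.08 (0.87 to 1.30) for WT and 1.46 (1.14 to 1.78) for SP in early cells, and 1.11 (0.90 to 1.32) and 1.22 (0.93 to 1.50) in late cells.

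The list also held receptors and the mineralocorticoid arm. Agtr2, the type 2 receptor, gave 10, 8, 3 and 4 UMIs in all kept cells, and Mas1, the receptor for angiotensin 1-7, gave 76, 38, 23 and 11. Lnpep, the angiotensin IV-binding aminopeptidase, read 196, 172, 260 and 186 CPM in podocytes. Agtrap, which binds the type 1 receptor, read 60.3, 65.5, 42.3 and 69.0 CPM in PT cells, with SP-ND lowest as for Ace. Hsd11b2, the enzyme that shields the mineralocorticoid receptor from glucocorticoids, read 3811, 2606, 3589 and 3538 CPM in principal cells, and Nr3c2, the receptor itself, 77.9, 74.1, 69.5 and 71.3 CPM. The mast cell proteases gave few UMIs, with 0, 0, 0 and 4 UMIs of Cpa3 and 18, 35, 4 and 10 of Cma1. At least 30 Cma1 UMIs of the 2 HFD libraries lay in the T or NK class, where the gene passed the filter on low values. A count of 0 allows up to 3 counts per library by the 1-sided 95% limit.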

How the data were processed

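Whole kidney suspensions were profiled with 10x 3′ chemistry. The authors deposited 1 matrix of UMI counts per library, whole numbers per gene and barcode, not normalized. The file headers name Cell Ranger 6.1.2, and the submitters' processing notes name Cell Ranger 2.1.1 and mm10. Deposited counts summed to 90728590 to 115117649 UMIs per library over 13229 to 16385 barcodes.

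Barcodes with 200 to 5000 genes and under 50% mitochondrial UMIs were kept, with genes seen in at least 3 cells. Simulated doublets scored each cell by nearest neighbours, and 2509 of 34789 cells were removed at 0.8% per 1000 cells. Libraries were joined with Seurat 5.3.0 by canonical correlation (2000 features, 50 components, resolution 0.5), leaving the 8 genes and the pathway lists out of the features. Clusters took a name when their marker list led on average and at least 3 markers were detected, with limits set after the clusters were seen. CPM is the sum of UMIs of a gene per 1000000 UMIs of the class. Ratios carry exact conditional binomial intervals, levels exact Poisson intervals and shares Clopper-Pearson intervals. UMIs of 1 cell are not independent, so intervals understate the error. The ratio step, run on simulated independent Poisson counts of whole libraries, recovered the direction of 200 of 200 changed genes. Such counts follow the model behind the intervals, so this checks the calculation only and not the clumping of UMIs in few cells.

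The genes named were the 8 members, the lists of pathway, companion and macula densa genes, Slc5a2 and, for each member, the 3 genes of highest Pearson correlation of log2(CPM + 1) over 60 pairs of class and library among 11963 genes with at least 500 UMIs. The members and lists were chosen with earlier results of these data known. Alternatives to the integration, resolution, mitochondrial limit, doublet removal, CPM total, free RNA, top cell, Ren1 threshold and filter on low values were run. Genes were placed on mm10, and promoters came from RefSeq on GRCm38.p6. One gene of the pathway list is not reported here. Fibroblasts and urothelium had too few cells per library for a class value. Python 3.11.15 and R 4.3.3 were used.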

Additional observations from a re-analysis of the deposited data

Results flagged for a closer look

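The diet contrast had opposite signs in the genotypes for Ren1 in mural cells, with log2 ratios of HFD to ND of 0.99 in WT and -1.48 in SP. The same held for Mme in the thick ascending limb, at -0.42 in WT and 0.32 in SP. With 1 library per group the difference between the genotypes was not tested, and it cannot be told apart from a difference between preparations.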

How the results depend on the processing

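No paired analysis was possible because each group had 1 library, and no replicate could be left out. For Ren1 in mural cells the log2 ratios of HFD to ND in WT, HFD to ND in SP, SP to WT on ND and SP to WT on HFD kept their signs in the settings run. These settings left out at most 5 cells per library. They were 0.79, -1.43, 1.09 and -1.13 without integration, 0.86, -1.54, 1.20 and -1.19 under 30% mitochondrial UMIs, 0.85, -1.63, 1.12 and -1.37 with doublets kept and no integration, and 0.58, -1.65, 0.74 and -1.49 without the top 5 cells, a setting added after the data were seen. The first 3 were 0.65, -1.57 and 0.93 at resolution 1.0. The WT diet ratio was 0.95 with a total free of mitochondrial UMIs, and without the top cell it was 0.75, with SP to WT at 1.08 and -1.14.

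Ren1 in PT cells gave ratios of HFD to ND in WT of -1.26 and of SP to WT on ND of -0.34 at resolution 1.0, of SP to WT on ND of 0.69 under 30% mitochondrial UMIs, and of -1.90 for the SP diet contrast and 0.83 for SP to WT on ND with doublets kept and no integration. With 2 unnamed clusters added to the PT class, also after the data were seen, they were 0.63 for the SP diet contrast, a reversal, and -1.04 for SP to WT on ND. The reversal rested on 1 cell of SP-HFD with 104 Ren1 UMIs. Agt in PT cells kept its order by diet, with SP to WT on ND at 0.27 under 30% mitochondrial UMIs, and with the added clusters 0.45 for diet in WT and 0.46 for SP to WT on HFD. The same addition reversed Ace (diet in WT, -0.071) and Mme (SP to WT on HFD, -0.74) over all PT cells. Enpep in podocytes reversed for diet in WT at resolution 1.0 (0.022) and with doublets kept and no integration together (0.083). With 10% of UMIs subtracted as free RNA, Ren1 in PT cells gave no value, since the amount taken, 10% of the library mean, exceeded its level. The cause was not tested.

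Cells in which Ren1 made up at least 1% of UMIs numbered 57 and 30 on ND and HFD in WT, and 39 and 25 in SP. In Ren1-rich against other cells within the Myh11 and Acta2 cluster, reversed log2 ratios beside those against all other mural cells were 0.65 and 0.52 for Agtr1a (WT-HFD and SP-HFD), -0.96 and -0.75 for Rgs5 (WT-ND and WT-HFD), -0.21 for Gja4 and 0.25 for Itga8 (WT-ND), 3.88 for Gja5 (WT-HFD) and -0.23, -0.43, -0.14 and -0.55 for Acta2. Pairs past 2-fold without a filter on low values, of 104 or 105 tested, were 11 higher and 25 lower (diet in WT, 11.3% and 14.2% of all genes and classes), 9 and 25 (diet in SP, 10.5% and 15.4%), 14 and 27 (SP to WT on ND, 13.2% and 11.3%) and 7 and 20 (SP to WT on HFD, 11.2% and 11.4%). At 50 CPM or more, of 26 to 30 tested, they were 0 and 0 for diet in WT (1.37% and 1.93%) and 1 and 2 for diet in SP (1.37% and 3.51%). They were 2 and 1 for SP to WT on ND (1.31% and 1.39%) and 1 and 1 for SP to WT on HFD (0.233% and 0.772%). With a total free of mitochondrial UMIs, diet in WT gave 2 higher and 4 lower of 47 (2.09% and 2.52%) and diet in SP 3 and 6 of 48 (1.65% and 3.24%). SP to WT gave 3 and 3 of 49 on ND (1.33% and 1.79%) and 2 and 3 of 43 on HFD (0.657% and 1.51%). The class with the highest level was the same for the 8 genes under both alternatives run. Of 352 values of 48 ratios of the remaining genes, 330 kept their sign. Depth limits Agtr1b, with 24 UMIs in all, and Ren1 outside mural cells, and 1 library per group limits every ratio.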

Other observations

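Genes of the macula densa, the tubular sensor that faces the renin cells, were read from a list of 4 in the thick ascending limb. No cluster was named macula densa, so the values cover the whole class, with 1334, 1219, 1330 and 1258 cells. Whether the libraries differed in the number of macula densa cells captured was not tested. Pappa2, a protease of insulin-like growth factor binding proteins, read 43.8 CPM (interval 38.9 to 49.2) on ND and 11.5 (9.21 to 14.1) on HFD in WT, and 3.73 (2.63 to 5.14) on ND and 8.92 (6.94 to 11.3) on HFD in SP. Nos1, the neuronal nitric oxide synthase gene, read 20.8, 3.92, 4.33 and 6.98 CPM. WT-ND was the high library for both. Ptgs2, the inducible cyclooxygenase gene, read 11.8, 27.3, 7.26 and 35.9 CPM, higher in both HFD libraries, with log2 diet ratios of 1.21 (0.82 to 1.61) in WT and 2.31 (1.93 to 2.70) in SP. This direction was not confined to the thick ascending limb. Ptgs2 also passed a 2-fold diet ratio upward in macrophages or dendritic cells of WT (log2 1.15) and neutrophils of SP (1.61), and in no class downward. Avpr1a, a vasopressin receptor gene, read 4.82, 2.48, 1.51 and 3.23 CPM there, and 120, 82.4, 141 and 116 CPM in intercalated cells.

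Ace in the thick ascending limb read 6.37, 5.48, 0.504 and 2.71 CPM, with SP-ND lowest as in PT cells. The 8 PT markers summed to 5089, 3665, 825 and 1322 CPM in the same cells, in the same order of libraries, and the part of such RNA in these Ace values was not tested.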
